A study of Mus musculus with 3 samples.

Results

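The genes described here are 42 mouse genes of T cells and natural killer (NK) cells, out of 19723 genes in the deposited count table. They were chosen by gene symbol, and all 42 were matched. They comprise 7 genes of the T cell receptor and its CD3 chains, 8 co-receptors and other surface receptors, 5 genes of proximal receptor signalling, 2 T lineage transcription factors, 4 genes of naive T cells, 11 genes of effector T cells and NK cells, 4 regulatory and activation genes, and Ltb, which encodes lymphotoxin beta.

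All cells were from female BALB/c mice aged 6 to 8 weeks, and each of 3 groups was sequenced as 1 library of bulk RNA. The alisertib group was myeloid-derived suppressor cells (MDSCs, immature myeloid cells named for their ability to restrain T cells) pooled from 20 tumours of mice given alisertib, a small-molecule inhibitor of the mitotic kinase Aurora A. The control group was MDSCs pooled from 20 tumours of tumour-bearing controls, which the labels call both untreated and control treated. The bone marrow group was neutrophils of 5 wild-type mice without alisertib. Per the labels, sorted cells were over 90% pure. The surface markers of the sort, the tumour line, the dose and the schedule are not known from the labels.

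The T cell receptor is a pair of chains, alpha and beta in most T cells, whose constant parts are encoded by Trac and by Trbc1 or Trbc2. It reaches the cell surface only together with the CD3 delta, epsilon, gamma and zeta chains, whose tails are phosphorylated by the kinase LCK and then bind the kinase ZAP70. Naive T cells, which have not met antigen, keep the transcription factors TCF1 (Tcf7) and LEF1 and the lymph node homing receptor CCR7. Effector T cells and NK cells instead carry granzymes and perforin. Myeloid cells are not known as a main source of most of these transcripts. In bulk samples, fewer cells of a type and less RNA per cell cannot be told apart.

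The libraries held 19373087 counts in the alisertib MDSCs, 21959748 in the control MDSCs and 21987097 in the bone marrow neutrophils. The 42 genes took 5063, 2392 and 9316 of these counts, or 0.0261%, 0.0109% and 0.0424%, in that order of libraries. Neutrophil genes were read in every library, at unlike levels. The sum over 14 of them was 16330 CPM in alisertib MDSCs, 37737 CPM in control MDSCs and 118246 CPM in bone marrow neutrophils. S100a8 and S100a9 gave 3341 and 7363 CPM of the alisertib sum. Such sums show neutrophil RNA in the libraries and do not establish the identity of the cells. CPM is the count per 1000000 counts after scaling the library sizes by TMM, a method that assumes most genes do not differ. Each ratio below is a ratio of CPM values with a 95% interval for counting error only. A gene was called higher or lower where the interval's bound nearest to 1 was at least 2-fold, among genes that reached 1 CPM in at least 1 library. With 1 library per group there is no replicate error, no test and no p-value, and each ratio describes the libraries and not the treatments.

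Of the 42 genes, 33 reached 1 CPM in some library and 9 did not, namely Cd8b1, Klrb1c, Ncr1, Klrk1, Klrd1, Eomes, Tbx21, Foxp3 and Il2ra. In alisertib against control MDSCs, 18 of the 42 genes were called higher and 0 were called lower. Among all 13019 genes compared, 234 (1.80%) were called higher and 154 (1.18%) lower. This balance over all genes depended on the settings: with at least 10 CPM required in 1 library, 66 were called higher and 125 lower, and with scaling by total counts 431 higher and 82 lower. The median log2 ratio was 1.87 over the 33 members that reached 1 CPM, against 0.00 over all genes compared. Without that filter it was 1.21 over all 42 members, against -0.05 over the 19723 genes in the count table. The calls were unevenly spread over the roles. Receptor and CD3 genes had 5 of 7 called higher, signalling genes 5 of 5, lineage factors 2 of 2 and naive genes 3 of 4. Co-receptors and other surface receptors had 3 of 8, effector and NK genes 0 of 11 and regulatory genes 0 of 4. Ltb was not called. Only 5 of the 11 effector and NK genes and 2 of the 4 regulatory genes reached 1 CPM, and without that filter the calls in both groups were still 0 higher and 0 lower. Cd3d had the reverse order of libraries to Cd3e. In the same comparison, 12 of 18 B and plasma cell genes were called higher and 9 of 14 neutrophil genes lower, and their part in the T cell gene ratios was not tested.

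**Figure D1:**
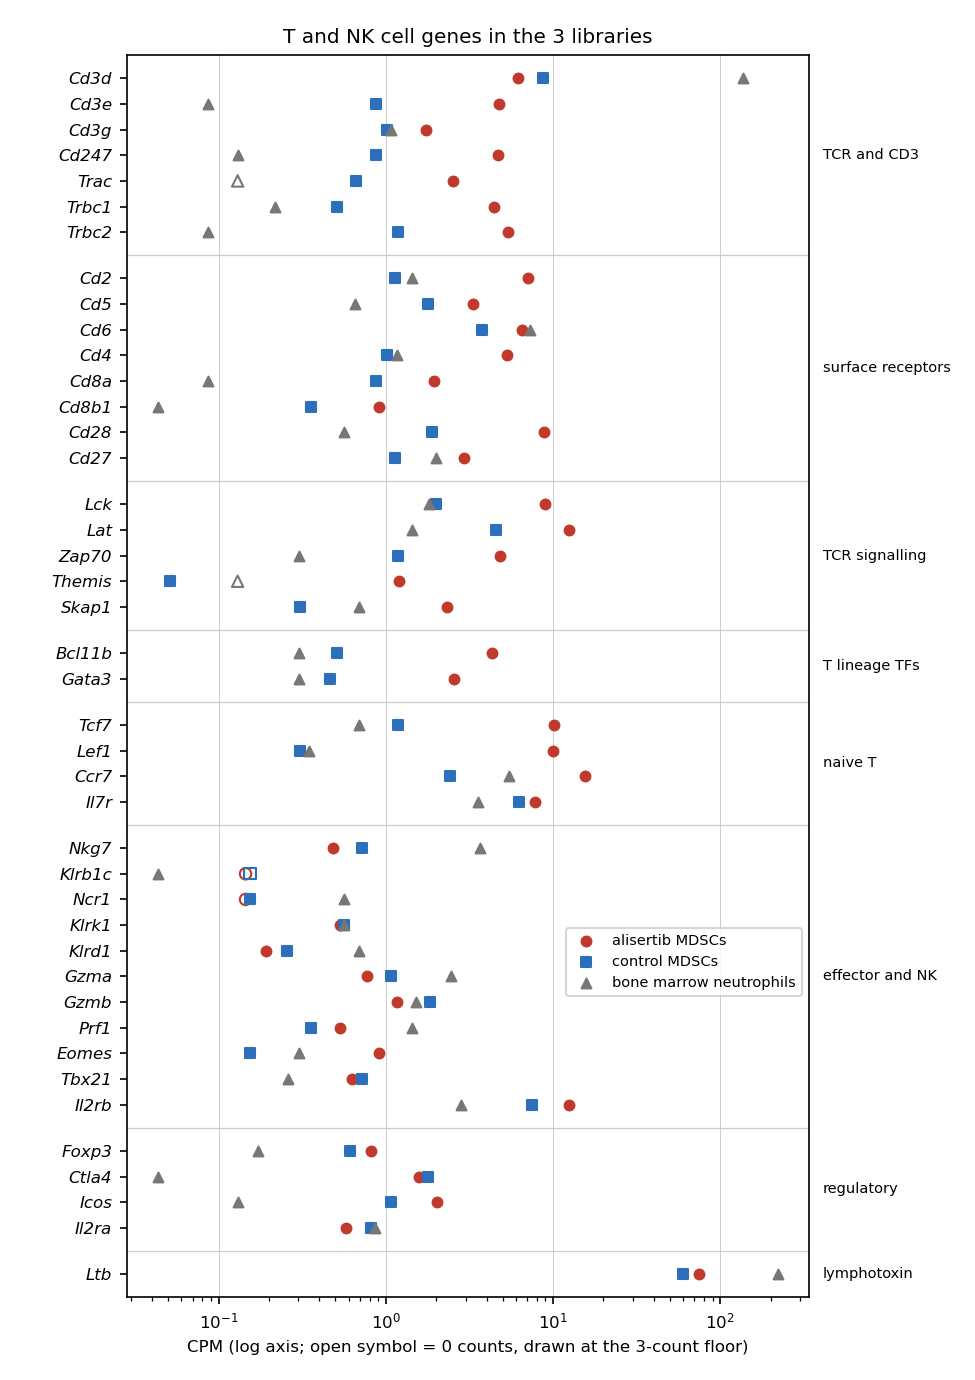
CPM of each of the 42 genes (log axis) in alisertib MDSCs (circles), control MDSCs (squares) and bone marrow neutrophils (triangles), grouped by role, with 1 library per group. Most receptor, signalling and naive genes are farthest right in the alisertib library, while Cd3d stands at 6.21 CPM in alisertib MDSCs, 8.7 CPM in control MDSCs and 136 CPM in bone marrow neutrophils.

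The receptor and CD3 genes were read at low counts in all libraries except for Cd3d. Cd3e, the epsilon chain, had 98 counts in alisertib MDSCs, 17 in control MDSCs and 2 in bone marrow neutrophils. Its CPM was 5.42 times as high in alisertib as in control MDSCs, with an interval of 3.22 to 9.69. Cd247, the zeta chain, had 97, 17 and 3 counts in the same order, a ratio of alisertib over control of 5.37 (3.19 to 9.59). These 2 genes thus moved alike: the count ratio of Cd247 to Cd3e was 0.99 in alisertib MDSCs, 1 in control MDSCs and 1.5 in bone marrow neutrophils, with an odds ratio of 0.99 (0.446 to 2.2) between the MDSC libraries. Reads of Cd247 share 3007 exon bases with Pou2f1 on the opposite strand, and the strand setting of the counting is not stated, so its counts are uncertain.

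Trac (chr14:54220521-54224206, plus strand, GRCm38) had 52 counts in alisertib MDSCs, 13 in control MDSCs and 0 in bone marrow neutrophils, with a ratio of alisertib over control of 3.76 (2.02 to 7.54). Its lower bound stood just inside the 2-fold limit. Trbc2 had 112 counts in alisertib MDSCs, 23 in control MDSCs and 2 in bone marrow neutrophils, and its ratio was 4.58 (2.91 to 7.52). Trbc1 had 92, 10 and 5 counts in the same order, and its ratio was 8.66 (4.5 to 18.7). Trbc1 and Trbc2 lie 6.85 kb apart on chromosome 6 and encode nearly the same protein, so the split of reads between them is uncertain. For all 3 constant-region genes the alisertib library was the highest and the bone marrow library the lowest.

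Cd3g, the gamma chain, was not called, with 36 counts in alisertib MDSCs, 20 in control MDSCs and 25 in bone marrow neutrophils. Its ratio of alisertib over control was 1.69, and the interval of 0.955 to 3.09 held both no change and a change above 2-fold.

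Cd3d, the delta chain, had 129 counts in alisertib MDSCs, 170 in control MDSCs and 3143 in bone marrow neutrophils. The bone marrow library was the highest and the alisertib library the lowest, the reverse of Cd3e. The ratio of alisertib over control was 0.714 with an interval of 0.564 to 0.903. With TMM scaling this interval lay below 1 but did not reach 2-fold, so Cd3d was not called. With scaling by total counts the log2 ratio was -0.22 in place of -0.48, and the interval shifted in this way held 1. On the deposited FPKM scale, which divides by gene length, Cd3d stood at 4.56 FPKM in alisertib MDSCs, 6.41 FPKM in control MDSCs and 102 FPKM in bone marrow neutrophils. Cd3e stood at 3.19, 0.59 and 0.0597 FPKM in those libraries. Per length, Cd3d therefore had rank 2 of the 42 genes in control MDSCs and in bone marrow neutrophils but rank 5 in alisertib MDSCs.

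**Figure D2:**
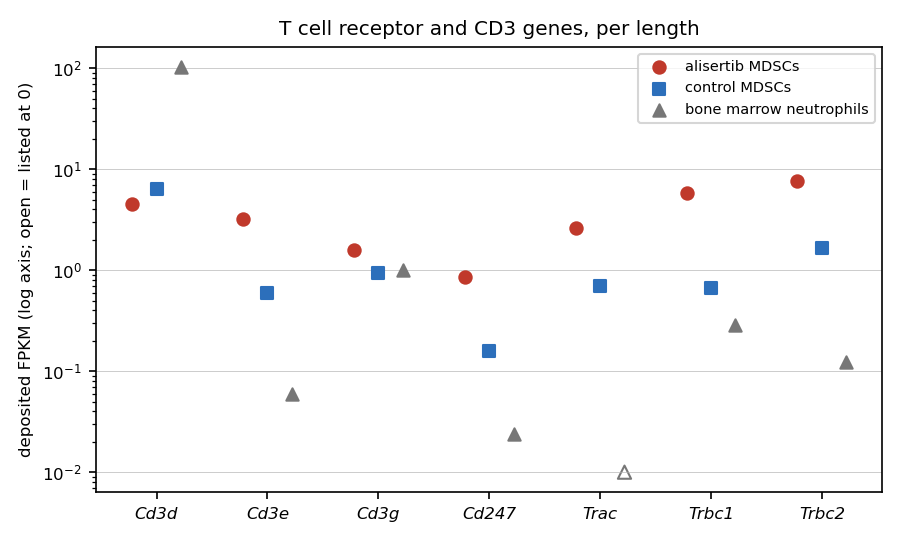
Deposited FPKM (log axis) of the 7 T cell receptor and CD3 genes in alisertib MDSCs (circles), control MDSCs (squares) and bone marrow neutrophils (triangles), with 1 library per group and an open symbol for a gene listed at 0. Cd3d falls in the opposite order of libraries to Cd3e, Cd247, Trac, Trbc1 and Trbc2, and the Cd3g values lie between 0.932 and 1.57 FPKM.

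The count ratio of 2 genes within a library does not depend on how libraries are scaled. Cd3d to Cd3e was 1.32 in alisertib MDSCs, 10 in control MDSCs and 1572 in bone marrow neutrophils. The alisertib ratio was 7.56-fold lower than the control ratio, with an exact interval of 4.24 to 14.2. Cd3g to Cd3e was 0.367 in alisertib MDSCs, 1.18 in control MDSCs and 12.5 in bone marrow neutrophils, which was 3.18-fold lower in alisertib than in control MDSCs (1.41 to 7.27). The chains of the CD3 complex were therefore not in fixed proportion across these libraries at the RNA level. These pairs were picked with their levels already known, so the differences are descriptions.

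The genes with the discordant levels are neighbours on chromosome 9. Cd3g (chr9:44969572-44980431, minus strand) and Cd3d (chr9:44981786-44987339, plus strand) are transcribed away from each other from starts 1.35 kb apart, and Cd3e (chr9:44998740-45009627, minus strand) ends 11.4 kb beyond the end of Cd3d, in GRCm38 coordinates. No exon of another annotated gene overlaps Cd3d, while Cd3e shares 135 exon bases with an antisense transcript, Gm48719. The windows around their annotated RefSeq starts, 250 bases before to 50 after, are shown because the genes differ in level although they adjoin. They are RefSeq sequence of the GRCm38.p6 build, which is of the C57BL/6J strain and not BALB/c, each read 5′ to 3′ on the strand of its gene. Capitals mark matches, on either strand, to GATAA (the core bound by GATA factors), CTTTGA (TCF/LEF), GGAAG (ETS) and TTNNGNAA (a C/EBP-like pattern). No match overlaps another in these windows.
Cd3d, chr9:44981536-44981835, plus strand: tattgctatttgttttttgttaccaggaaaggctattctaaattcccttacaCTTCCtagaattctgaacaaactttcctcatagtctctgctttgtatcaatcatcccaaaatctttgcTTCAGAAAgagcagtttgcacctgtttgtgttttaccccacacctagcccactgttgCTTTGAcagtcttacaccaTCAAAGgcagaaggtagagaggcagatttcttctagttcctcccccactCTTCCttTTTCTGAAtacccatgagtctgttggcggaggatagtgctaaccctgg
Cd3g, chr9:44980382-44980681, minus strand: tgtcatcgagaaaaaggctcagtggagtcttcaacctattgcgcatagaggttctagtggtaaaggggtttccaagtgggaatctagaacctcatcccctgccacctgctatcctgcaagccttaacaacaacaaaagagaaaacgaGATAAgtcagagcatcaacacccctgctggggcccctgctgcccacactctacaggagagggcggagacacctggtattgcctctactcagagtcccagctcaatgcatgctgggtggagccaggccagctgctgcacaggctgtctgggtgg
Cd3e, chr9:45009562-45009861, minus strand: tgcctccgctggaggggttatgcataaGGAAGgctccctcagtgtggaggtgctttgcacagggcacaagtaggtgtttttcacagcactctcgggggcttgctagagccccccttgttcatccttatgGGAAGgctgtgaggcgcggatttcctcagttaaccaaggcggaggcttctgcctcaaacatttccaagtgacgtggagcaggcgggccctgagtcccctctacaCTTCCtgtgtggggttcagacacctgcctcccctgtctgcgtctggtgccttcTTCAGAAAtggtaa

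The Cd3d window held 2 TCF/LEF matches, which begin at -73 and -54 from the start, 2 ETS matches at -198 and -5, and 2 C/EBP-like matches at -130 and 3. The Cd3e window held 3 ETS matches, at -223, -121 and -17, and 1 C/EBP-like match at 37, with no match to GATAA or CTTTGA in these letters. The Cd3g window held 1 GATAA match, at -103. Such short patterns are common: of 32851 mouse windows of the same length, 71.4% held GGAAG, 40.7% TTNNGNAA, 25.4% GATAA and 16% CTTTGA. Among the 29 members with at least 1 window, 23 held GGAAG, 14 TTNNGNAA, 8 CTTTGA and 6 GATAA in some window. A match is a pattern of letters and not evidence of binding.

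Among the 8 co-receptors and accessory receptors, 3 were called higher in alisertib than in control MDSCs. Cd28, which delivers the co-stimulatory signal of T cells, had 183 counts in alisertib MDSCs, 37 in control MDSCs and 13 in bone marrow neutrophils, a ratio of alisertib over control of 4.65 (3.25 to 6.82). Cd2, an adhesion receptor of T and NK cells, had 148, 22 and 33 counts in those libraries and a ratio of 6.33 (4.03 to 10.4). Cd4, the co-receptor of helper T cells that some myeloid cells also carry, had 110, 20 and 27 counts and a ratio of 5.18 (3.19 to 8.8). For Cd2 and Cd4 the alisertib library stood apart, and the control and bone marrow libraries were close to each other.

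The other 5 receptors had intervals above 1 that did not reach the 2-fold bound. Cd8a, the alpha chain of the co-receptor of cytotoxic T cells, had 40 counts in alisertib MDSCs, 17 in control MDSCs and 2 in bone marrow neutrophils, with a ratio of 2.21 (1.23 to 4.17). Its partner Cd8b1, 35.9 kb away, had 19, 7 and 1 counts and a ratio of 2.55 (1.03 to 7.19). Both CD8 chains were thus ordered alike over the 3 libraries. Cd27, a co-stimulatory receptor, had 61, 22 and 46 counts and a ratio of 2.61 (1.58 to 4.46). Cd5 and Cd6, related scavenger-type receptors that dampen T cell signals and lie 50.3 kb apart on chromosome 19, had ratios of 1.86 (1.22 to 2.87) and 1.74 (1.3 to 2.35). Cd5 had 69 counts in alisertib MDSCs, 35 in control MDSCs and 15 in bone marrow neutrophils, whereas Cd6 had 135, 73 and 167, so that bone marrow was the lowest library for Cd5 and level with alisertib MDSCs within counting error for Cd6. The count ratio of Cd4 to Cd8a, chosen after its values were seen, was 2.75 in alisertib MDSCs, 1.18 in control MDSCs and 13.5 in bone marrow neutrophils. Between alisertib and control MDSCs that ratio differed by a factor of 2.33, with an interval of 1.03 to 5.21 that nearly reached 1.

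All 5 proximal signalling genes were called higher in alisertib MDSCs. Lck, the kinase that starts receptor signalling, had 186 counts in alisertib MDSCs, 39 in control MDSCs and 42 in bone marrow neutrophils, a ratio of alisertib over control of 4.49 (3.16 to 6.51). Zap70, the kinase that binds the phosphorylated CD3 chains, had 100, 23 and 7 counts in those libraries and a ratio of 4.09 (2.58 to 6.75). Lat, the membrane scaffold that ZAP70 phosphorylates, had 258, 89 and 33 counts and a ratio of 2.73 (2.14 to 3.51), the smallest of the 5. The 3 genes differ in the bone marrow library: Lck stood near its control level there, while Zap70 and Lat were below theirs. Skap1, an adaptor that links the receptor to integrin adhesion, had 48 counts in alisertib MDSCs, 6 in control MDSCs and 16 in bone marrow neutrophils, with a ratio of 7.53 (3.22 to 21.5). Themis, a regulator of receptor signalling in thymocytes, had 25 counts in alisertib MDSCs, 1 in control MDSCs and 0 in bone marrow neutrophils, and the ratio was 23.5 (3.85 to 966). With 1 control count, the size of the Themis difference is known only by its lower bound.

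Both lineage factors were called higher. Bcl11b, needed for commitment to the T lineage, had 90 counts in alisertib MDSCs, 10 in control MDSCs and 7 in bone marrow neutrophils, a ratio of 8.47 (4.4 to 18.3). Gata3, a factor of early T cells, helper T cells and type 2 innate lymphocytes, had 53, 9 and 7 counts and a ratio of 5.54 (2.71 to 12.8). For both, the control and bone marrow libraries lay close together and the alisertib library above them.

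The naive T cell genes held the member with the largest ratio. Lef1 (chr3:131110471-131224356, plus strand) had 208 counts in alisertib MDSCs, 6 in control MDSCs and 8 in bone marrow neutrophils, a ratio of alisertib over control of 32.6 (14.7 to 89.9). An antisense transcript, Gm43352, shares 1208 exon bases with Lef1, and its reads cannot be told apart without strand. Tcf7 (chr11:52252371-52283014, minus strand) had 210, 23 and 16 counts in the same libraries and a ratio of 8.59 (5.57 to 13.9). Ccr7, which also guides mature dendritic cells and B cells to lymph nodes, had 324 counts in alisertib MDSCs, 47 in control MDSCs and 126 in bone marrow neutrophils, with a ratio of 6.49 (4.77 to 9.01). The alisertib library was far above the other 2 for Lef1 and Tcf7, whereas Ccr7 had an intermediate level in bone marrow. Il7r, the receptor for the survival cytokine interleukin-7 that memory T cells and innate lymphocytes carry too, did not follow them. It had 163 counts in alisertib MDSCs, 122 in control MDSCs and 82 in bone marrow neutrophils, a ratio of 1.26 whose interval of 0.988 to 1.6 stayed below 2-fold. The count ratio of Lef1 to Il7r, a pair chosen after the values were seen, was 1.28 in alisertib MDSCs, 0.0492 in control MDSCs and 0.0976 in bone marrow neutrophils, a factor of 25.8 (11.1 to 73.5) between alisertib and control.

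**Figure D3:**
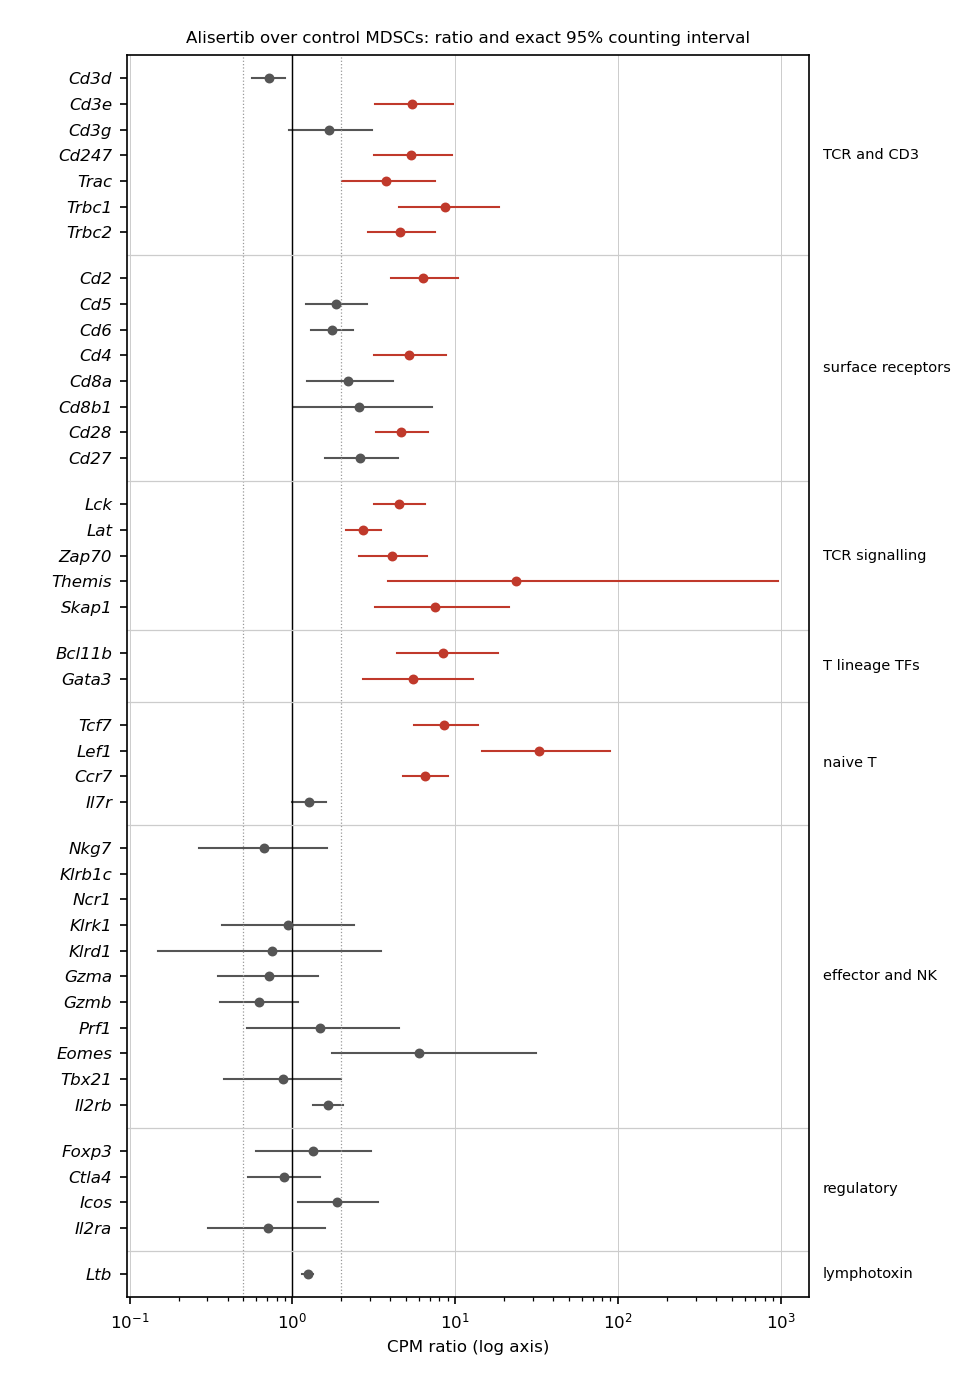
Ratio of CPM in alisertib over control MDSCs (log axis) for each of the 42 genes with its exact 95% counting interval, by role; red marks genes called higher, grey genes not called, dotted lines 2-fold either way, and Klrb1c and Ncr1 have no ratio because both libraries were at or under 3 counts. The 18 called genes all lie in the first 5 groups, and Cd3d is the one gene whose interval lies below 1 with the TMM scaling drawn here.

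None of the 11 effector and NK genes was called in alisertib against control MDSCs, and their median log2 ratio was -0.47 over the 5 that reached 1 CPM and -0.19 over all 11. Gzmb, granzyme B of cytotoxic granules, had 24 counts in alisertib MDSCs, 36 in control MDSCs and 35 in bone marrow neutrophils, a ratio of 0.627 (0.358 to 1.08). Gzma, granzyme A, had 16, 21 and 57 counts in those libraries and a ratio of 0.717 (0.35 to 1.44). Nkg7, a granule protein of NK and cytotoxic T cells, had 10, 14 and 85 counts and a ratio of 0.672 (0.267 to 1.63). The upper bounds of these 3 genes were below 2-fold, so that a rise of that size lay outside their counting intervals. All 3 had the alisertib library lowest, but each interval also held no change between the MDSC libraries. Prf1, the pore-forming protein perforin, had 11 counts in alisertib MDSCs, 7 in control MDSCs and 33 in bone marrow neutrophils, with a ratio of 1.48 (0.523 to 4.5) too wide to place. The count ratio of Tcf7 to Gzmb, again a pair chosen after seeing the values, was 8.75 in alisertib MDSCs, 0.639 in control MDSCs and 0.457 in bone marrow neutrophils. It differed by a factor of 13.5 (6.63 to 28.3) between alisertib and control MDSCs.

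The NK receptors were read at 0 to 16 counts. Ncr1, which encodes the NK receptor NKp46, had 0 counts in alisertib MDSCs, 3 in control MDSCs and 13 in bone marrow neutrophils. Klrb1c, an NK receptor gene, had 0, 0 and 1 counts. Klrd1, the CD94 chain, had 4, 5 and 16. Klrk1, the activating receptor NKG2D, had 11, 11 and 13 counts, with a ratio of alisertib over control of 0.941 (0.37 to 2.39). A count of 0 allows up to 0.145 CPM in the alisertib library and 0.154 CPM in the control library. For Ncr1, Klrb1c and Klrd1 a difference between the MDSC libraries was not detectable at this depth, while for Klrk1 differences beyond its interval lay outside counting error.

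The factors and receptors shared by effector T cells and NK cells varied among themselves. Eomes, a T-box factor of NK and memory CD8 T cells, had 19 counts in alisertib MDSCs, 3 in control MDSCs and 7 in bone marrow neutrophils, and the ratio was 5.96 (1.75 to 31.4). It stayed under 1 CPM in every library. Tbx21, the related factor T-bet, had 13, 14 and 6 counts and a ratio of 0.874. Il2rb, the beta chain of the interleukin-2 and interleukin-15 receptors, had 258 counts in alisertib MDSCs, 147 in control MDSCs and 65 in bone marrow neutrophils, a ratio of 1.65 (1.34 to 2.04). Il2rb had the most counts of the 11 genes in both MDSC libraries and made up 12.4 of the 17.6 CPM summed over them in alisertib MDSCs and 7.53 of the 13.4 CPM in control MDSCs.

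The regulatory and activation genes gave no call between the MDSC libraries either. Foxp3, the lineage factor of regulatory T cells, had 17 counts in alisertib MDSCs, 12 in control MDSCs and 4 in bone marrow neutrophils, with a ratio of 1.33 (0.6 to 3.06). Its exons overlap those of Ccdc22, Ppp1r3f and other genes, so that the few counts are uncertain. Ctla4, an inhibitory receptor of regulatory and activated T cells, had 33, 35 and 1 counts and a ratio of 0.887 (0.534 to 1.47). Icos, a co-stimulatory receptor that appears upon activation, had 42, 21 and 3 counts and a ratio of 1.88 (1.09 to 3.35). Il2ra, the high-affinity interleukin-2 receptor chain CD25, had 12, 16 and 20 counts and a ratio of 0.706 (0.305 to 1.59). Cd28, Ctla4 and Icos lie side by side on chromosome 1, with gaps of 114 kb and 62.1 kb. In alisertib against control MDSCs, Cd28 was called and its neighbours were not.

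Ltb, a membrane-bound cytokine of lymphocytes that organises lymphoid tissue, had the most counts of the 42 genes. It had 1547 counts in alisertib MDSCs, 1169 in control MDSCs and 5129 in bone marrow neutrophils, and it ranked first per length in each library, at 47.7 FPKM, 38.5 FPKM and 145 FPKM in that order. The ratio of alisertib over control was 1.25 with an interval of 1.15 to 1.34, above 1 and short of 2-fold. Ltb and Cd3d together took most of the member counts of the bone marrow library, and without them the other 40 genes summed to 163 CPM in alisertib MDSCs, 53.9 CPM in control MDSCs and 45.3 CPM in bone marrow neutrophils.

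Against bone marrow neutrophils, 22 members were called higher and 3 lower in alisertib MDSCs, where 18.7% of all genes compared were called higher and 22.3% lower. In control MDSCs, 7 members were called higher and 3 lower, where 18.3% of all genes were called higher and 22.9% lower. The share of members called higher was therefore close to that of all genes in control MDSCs and above it in alisertib MDSCs. The median log2 ratio over the 33 members was 2.32 in alisertib MDSCs, where all genes compared had -0.09, and 0.73 in control MDSCs, where all genes had -0.14. The control value was -0.15 with at least 10 CPM required in 1 library. Under 1 CPM in every library and so not called, Cd8b1 had a ratio over bone marrow of 21.1 (3.36 to 877) in alisertib MDSCs and 8.27 (1.06 to 373) in control MDSCs. Ncr1, at 0 counts in alisertib MDSCs, was at least 3.9-fold lower there than in bone marrow. Both comparisons share the bone marrow library, so they are set side by side and not counted as separate support.

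The 7 genes called higher in control MDSCs over bone marrow were Cd3e, Trac, Trbc2, Cd8a, Lat, Ctla4 and Icos, and each was called in alisertib MDSCs too. Ctla4 had a ratio over bone marrow of 36.7 (6.14 to 1492) in alisertib MDSCs and 41.3 (6.95 to 1679) in control MDSCs, with 1 count in bone marrow. Icos had a ratio of 15.6 (4.97 to 78.5) in alisertib MDSCs and 8.27 (2.47 to 43.3) in control MDSCs. For Ctla4 and Icos, then, both MDSC libraries stood above bone marrow, where Icos had only 3 counts. The rest of their list was not called: Il2ra had ratios over bone marrow of 0.667 in alisertib and 0.945 in control MDSCs, and Foxp3 of 4.72 and 3.54. Cd3e had a ratio of 54.5 (14.7 to 456) in alisertib MDSCs and 10 (2.38 to 89.6) in control MDSCs. Trac, at 0 counts in bone marrow, was at least 19.3-fold higher in alisertib MDSCs and at least 5.12-fold higher in control MDSCs, taking 3 counts as the bone marrow floor. Lat had a ratio of 8.69 (6.03 to 12.9) in alisertib MDSCs and 3.19 (2.11 to 4.9) in control MDSCs.

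The naive genes and lineage factors were called over bone marrow in alisertib MDSCs and not in control MDSCs, except for Il7r, which was called in neither. Lef1 had a ratio of 28.9 (14.4 to 67.8) in alisertib MDSCs and 0.886 (0.253 to 2.91) in control MDSCs. Tcf7 had 14.6 (8.77 to 26) in alisertib MDSCs and 1.7 (0.859 to 3.44) in control MDSCs. Bcl11b had 14.3 (6.66 to 36.6) in alisertib MDSCs and 1.69 (0.58 to 5.22) in control MDSCs. The difference between these pairs of ratios is the alisertib over control ratio already given for each gene.

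Cd3d, Nkg7 and Ltb were called lower than in bone marrow in both MDSC libraries. Cd3d was 21.9-fold lower (18.4 to 26.4) in alisertib MDSCs and 15.7-fold lower (13.4 to 18.4) in control MDSCs. Nkg7 was 7.65-fold lower (3.96 to 16.5) in alisertib MDSCs and 5.14-fold lower (2.9 to 9.8) in control MDSCs. Ltb was 2.98-fold lower (2.82 to 3.16) in alisertib MDSCs and 3.72-fold lower (3.49 to 3.96) in control MDSCs. The 3 genes come from 3 roles, a CD3 chain, a granule protein and a cytokine. Cd3d was the one CD3 chain whose RNA was abundant in the bone marrow library, at 102 FPKM against 1 FPKM for Cd3g.

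**Figure D4:**
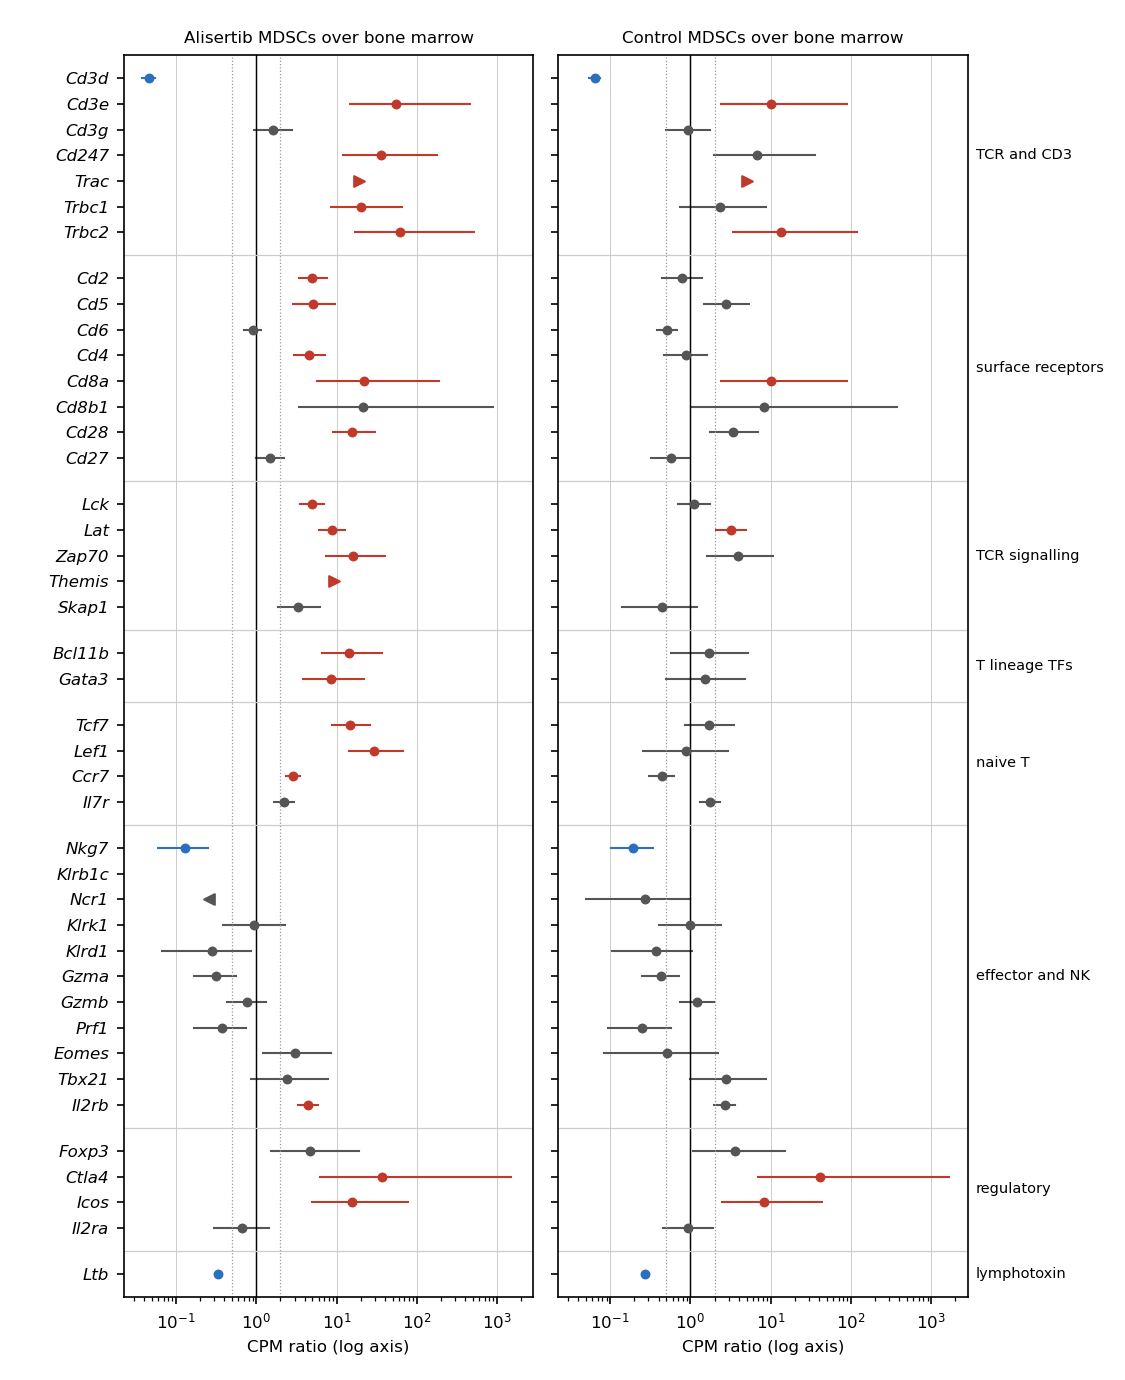
Ratio of CPM over bone marrow neutrophils (log axis) in alisertib MDSCs (left) and control MDSCs (right) for each of the 42 genes, with exact 95% counting intervals; red marks called higher, blue called lower, grey not called or under 1 CPM in every library, and an arrowhead a bound against 0 counts. Genes with no mark had at most 3 counts in both libraries, and Cd3d, Nkg7 and Ltb are called lower in both panels.

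Further genes of the T cell pathway, listed by role, were counted in the same way for alisertib against control MDSCs. Of 15 further receptor signalling genes in the count table, 13 reached 1 CPM, 6 were called higher and 0 lower. Txk, a kinase of T cells, had a ratio of alisertib over control of 7.53 (4.77 to 12.5). The adaptors Grap2, which binds LAT complexes, and Sh2d2a, which binds LCK, had ratios of 4.55 (3.4 to 6.19) and 4.36 (3.28 to 5.9), and Rasgrp1 was called higher too.

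Of 10 further naive and trafficking genes, 9 reached 1 CPM and 1 was called higher, Satb1, a chromatin organiser of thymocytes, with 923 counts in alisertib MDSCs, 229 in control MDSCs and 4481 in bone marrow neutrophils and a ratio of 3.79 (3.28 to 4.4). Klf2, which promotes T cell recirculation, had a ratio of 0.684, and Ets1 had a ratio of 1.64. Of 12 further effector and exhaustion genes, 9 reached 1 CPM and 1 was called higher, Tox, a factor of thymocytes and exhausted T cells, with 23 counts in alisertib MDSCs, 2 in control MDSCs and 4 in bone marrow neutrophils and a ratio of 10.8 (2.67 to 94.7). Zeb2 had a ratio of 1.01, Prdm1 of 1.38 and Fasl, the death ligand of cytotoxic cells, of 0.657 (0.495 to 0.87). The receptor signalling list thus had the larger share of calls, and the naive and effector lists 1 call each.

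None of the 4 further NK receptor genes in the count table was called: Tyrobp, Fcer1g and Cd244a, which myeloid cells express too, had ratios of 0.785, 0.872 and 0.684, and Klrg1 had 0 counts in alisertib MDSCs, 1 in control MDSCs and 1 in bone marrow neutrophils. None of the 5 gamma-delta T and innate lymphoid genes was called in alisertib against control MDSCs. Rora, a nuclear receptor, had 225 counts in alisertib MDSCs, 117 in control MDSCs and 25 in bone marrow neutrophils, Il1rl1, a receptor for interleukin-33, had 72, 85 and 152, and Tcrg-C2, a gamma-chain constant gene, had 0, 1 and 0. Zbtb16, the factor PLZF of innate-like lymphocytes, had 7 counts in alisertib MDSCs, 12 in control MDSCs and 319 in bone marrow neutrophils, and Sox13, a factor of gamma-delta T cells, had 4, 3 and 528. Both were called lower than in bone marrow in both MDSC libraries: Zbtb16 was 41-fold lower (19.7 to 103) in alisertib MDSCs and 22.5-fold lower (12.7 to 44) in control MDSCs, and Sox13 was 119-fold lower (46.1 to 438) in alisertib MDSCs and 149-fold lower (50.7 to 725) in control MDSCs.

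Marker genes of other cell types were examined in the same comparison. The B and plasma cell list had 0 genes called lower beside the 12 called higher, with a median log2 ratio of 3.03, or 2.77 with the genes at 0 control counts set to their lower bounds. Ighm, the IgM heavy chain, had 437 counts in alisertib MDSCs, 59 in control MDSCs and 2754 in bone marrow neutrophils, a ratio of 6.97 (5.3 to 9.31). Cd79a, a signalling chain of the B cell receptor, had 149, 16 and 552 counts and a ratio of 8.76 (5.22 to 15.7). Igkc, the kappa light chain, had a ratio of 4.79 (3.01 to 7.95). The 18 genes summed to 87.7 CPM in alisertib MDSCs, 45.1 CPM in control MDSCs and 289 CPM in bone marrow neutrophils, and 0, 2 and 0 of them were at 0 counts. That sum includes Sdc1, named after its values were seen, which had 444 counts in alisertib MDSCs and 689 in control MDSCs. The count ratio of Cd79a to Cd3e, a pair chosen after seeing the data, was 1.52 in alisertib MDSCs, 0.941 in control MDSCs and 276 in bone marrow neutrophils, and it differed between alisertib and control MDSCs by a factor of 1.61 (0.728 to 3.59). The interval for this pair held no change between the MDSC libraries, while the bone marrow library had far more Cd79a relative to Cd3e.

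The neutrophil list had 0 genes called higher beside the 9 called lower in alisertib MDSCs, with a median log2 ratio of -1.41. S100a9 had 152832 counts in alisertib MDSCs, 346256 in control MDSCs and 701051 in bone marrow neutrophils, and was 2.41-fold lower in alisertib than in control MDSCs. S100a8, Lcn2 and Retnlg were 2.61-fold, 2.72-fold and 4.96-fold lower. None of these genes was at 0 in any library. No gene of 12 monocyte and macrophage genes was called, and they summed to 1087 CPM in alisertib MDSCs, 1014 CPM in control MDSCs and 597 CPM in bone marrow neutrophils.

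Among 10 conventional dendritic cell genes, 1 was called lower, Ccl22, and they summed to 179 CPM in alisertib MDSCs, 159 CPM in control MDSCs and 25 CPM in bone marrow neutrophils. Most of these sums was the single gene Itgax, at 169, 151 and 19.2 CPM in those libraries. Among 6 plasmacytoid dendritic cell genes, 1 was called higher, Spib, which B cells express too, while Siglech, a defining marker, had 0 counts in both MDSC libraries. Vwf was called higher among 4 endothelial genes, which summed to 52.9 CPM in alisertib MDSCs, 50.1 CPM in control MDSCs and 10.7 CPM in bone marrow neutrophils. The others had ratios of alisertib over control below 1 and were not called: Pecam1 0.857, Kdr 0.659 and Cdh5 0.376. Kdr and Cdh5 had few counts, and Pecam1 gave 37.5, 43.7 and 10.1 CPM of the sums. No gene of 9 eosinophil, mast cell and basophil genes, 3 epithelial genes or 1 fibroblast gene was called.

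**Figure D5:**
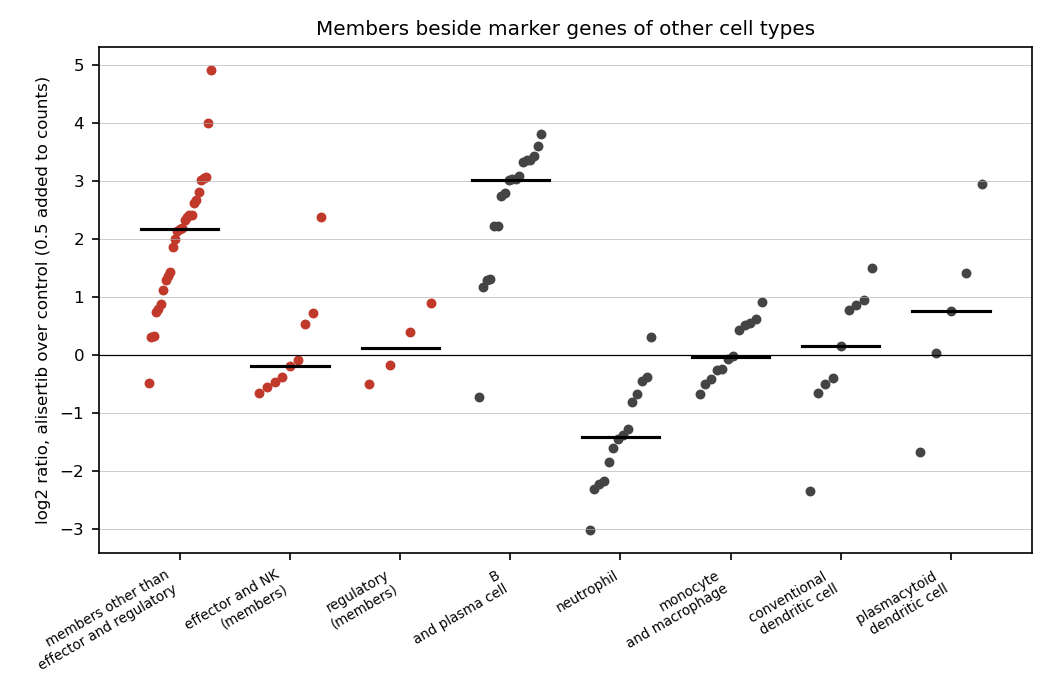
Log2 ratio of CPM in alisertib over control MDSCs, with 0.5 added to each count, for the members in 3 groups (red) and for marker genes of other cell types (grey); each point is 1 gene with more than 3 counts in either library, and bars are medians of the points. B and plasma cell genes have a median of 3.03 and neutrophil genes of -1.41, while the effector and NK members have a median of -0.19.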

How the data were processed

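RNA of 3 pooled sorts was sequenced, 1 library per group. The authors deposited raw read counts per gene and FPKM values, which correct for gene length and depth. The submitters' processing notes list CASAVA 1.8, STAR 2.5.1b, mm9 and mm10 and give none of them a role. The sources used here do not name the counting tool, annotation, strand setting or filters. Counts were given for 19723 genes and FPKM values for 23327, with 19173 in both. Columns were matched to samples by title.

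The totals of 19373087 (alisertib), 21959748 (control) and 21987097 (bone marrow) counts were scaled by TMM factors of 1.07, 0.89 and 1.05 (edgeR 4.0.16, R 4.3.3). CPM, ratios and exact Clopper-Pearson 95% intervals were computed in Python 3.11.15 with scipy 1.17.1 after a filter of 1 CPM in at least 1 library (13019 genes). For log2 ratios 0.5 was added to each count. The call rule required 2-fold at the bound closer to 1. Against 0 counts, a floor of 3 counts in that library was used, and no fold is given where both libraries were at or under it. Intervals and floors cover counting error only, and reads lacking molecular identifiers may count 1 molecule repeatedly. Ratios of 2 genes' counts were compared by exact conditional odds ratios. The procedure was tested on simulated data. Levels of different genes were compared per length by FPKM. Ratios of 2 genes' counts, orders by counts and sums of CPM are not corrected for gene length.

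All 42 members are named, and up to 4 genes of each further list, called genes first and then by counts in the alisertib library. The members and lists were chosen with earlier results of these data known. Positions are from GENCODE M21 (GRCm38), and start-site windows from RefSeq (GRCm38.p6), which held 29 of the 42 members. Alternatives were total counts or DESeq2 1.42.0 size factors as scaling, other filters, other fold bounds, and FPKM with a pseudocount of 0.1 or 1. Some genes of the pathway and marker lists are not reported here by name.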

Additional observations from a re-analysis of the deposited data

Results flagged for a closer look

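Of 61 further T and NK pathway genes listed, 46 were in the count table, 13 were in the FPKM table only and 2 were in neither. Of the 13, 5 had a higher FPKM value in alisertib than in control MDSCs, and they are listed as values that the comparisons did not use. They were picked for being higher, and the rest of the 13 were not higher. Ifng, the cytokine interferon gamma, was at 0.659 FPKM in alisertib MDSCs, 0.207 FPKM in control MDSCs and 0.249 FPKM in bone marrow neutrophils. Xcl1, a chemokine of NK and CD8 T cells, was at 0.358, 0.0953 and 0.41 FPKM in those libraries. Gzmc, a granzyme, was at 0.2, 0.107 and 0.275 FPKM. Trdc, the constant part of the delta receptor chain, was at 0.0605, 0.0258 and 0.0333 FPKM. Sh2d1a, an adaptor of T and NK cells, was at 0.051 FPKM in alisertib MDSCs and 0.00906 FPKM in control MDSCs and listed at 0 in bone marrow neutrophils. The depth behind these values is unknown, so no interval is given and their differences were not tested.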

How the results depend on the processing

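No paired analysis was possible because each group had 1 library, and for the same reason no library could be left out. No called member changed sign under the other scalings or with FPKM. With at least 10 CPM required in 1 library, fewer genes remained: 4 members were called higher in alisertib against control MDSCs, 5 in alisertib MDSCs against bone marrow and 1 in control MDSCs against bone marrow. Of the 7694 genes then compared, 66, 1482 and 1564 were called higher in those comparisons, in that order. In control MDSCs against bone marrow, 11 members were called higher and 5 lower at a 1.5-fold bound. Of all 13019 genes compared, 3310 were called higher and 4023 lower at that bound. At a 3-fold bound 3 members were called higher and 2 lower, beside 1496 and 1854 of all genes. In alisertib against control MDSCs the same 18 members were called higher with total counts, 17 of them with DESeq2 size factors (Trac was lost) and 13 of them at a 3-fold bound. The number called lower was 0 under each of these settings.

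Scaling by total counts shifted every log2 ratio by 0.27 in alisertib against control MDSCs and by -0.24 in control MDSCs against bone marrow. Of all genes called between alisertib and control MDSCs, 60.3% were higher with TMM, 84% with total counts (431 higher, 82 lower) and 52.7% with DESeq2 size factors. That share was 62.3% with no filter, 34.6% with at least 10 CPM (66 higher, 125 lower), 49.1% at a 1.5-fold bound (617 higher, 640 lower) and 78.5% at a 3-fold bound (95 higher, 26 lower), so the balance of higher and lower calls over all genes has no fixed direction. The median log2 ratio of the members in control MDSCs against bone marrow was 0.73, and -0.15 with at least 10 CPM. In alisertib against control MDSCs the log2 ratio of Cd3d was -0.48 with TMM, -0.22 with total counts and -0.54 with DESeq2 size factors. Those of Klrk1, Tbx21 and Ctla4, none of them called, were -0.09, -0.19 and -0.17 with TMM and 0.18, 0.08 and 0.10 with total counts, so they have no fixed sign. In control MDSCs against bone marrow the uncalled Cd3g, Lck, Klrk1 and Il2ra, all within 0.13 of 0 with TMM, changed sign under another scaling. With FPKM plus 1, log2 ratios of 18 of 40 members left their counting interval in alisertib against control MDSCs. For the T cell receptor genes against bone marrow, the median log2 ratio was 4.95 in alisertib MDSCs and 2.56 in control MDSCs, or 4.27 and 2.36 with Trac at its bound. Low counts limit the effector, NK and regulatory genes.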

Other observations

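The pathway genes with FPKM values alone that were not higher in alisertib than in control MDSCs were mostly NK receptors and gamma-delta chains. Klrc1, which pairs with CD94, was at 0.0707 FPKM in alisertib MDSCs, 0.226 FPKM in control MDSCs and 0.13 FPKM in bone marrow neutrophils. Klre1, an NK lectin receptor, was at 0.0134, 0.186 and 0.0245 FPKM in those libraries. Tcrg-C1, a gamma-chain constant gene, was listed at 0 in alisertib MDSCs and in bone marrow neutrophils and was at 0.216 FPKM in control MDSCs. Tigit, an inhibitory receptor of T and NK cells, was at 0.826 FPKM in alisertib MDSCs, 0.88 FPKM in control MDSCs and 0.0445 FPKM in bone marrow neutrophils, an order of libraries like that of Ctla4. These genes were chosen after their values were seen.

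Pdcd1, the inhibitory receptor PD-1, had 15 counts in alisertib MDSCs, 30 in control MDSCs and 1 in bone marrow neutrophils, and its ratio of alisertib over control was 0.471 with an interval of 0.235 to 0.902. It was not called in that comparison and was called higher over bone marrow in both MDSC libraries. This gene too was chosen after its values were seen.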
